A study of Mus musculus with 10 samples.

Results

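Within the mutant (RFP+) cells isolated 2 weeks post-induction lay cells defined by transcripts of a set of keratin, claudin and S100 genes with Procr and F3, although not every cell showed the latter genes. Its members, called marker-high cells here, were the barcodes of the 2 mutant RFP+ 2-week libraries in which at least 4 of the 6 genes Procr, F3, Krt7, Cldn4, Krt19 and S100a14 had 1 or more unique molecular identifiers (UMIs). Cells had to show 1000 or more genes, at most 50000 UMIs and at most 15% mitochondrial UMIs. They had no UMI of the leukocyte gene Ptprc, fewer than 3 UMIs of Dlk1, fewer than 10 of Gzme and fewer than 3 of Hopx. These criteria selected 1817 cells, 996 in replicate 1 and 821 in replicate 2, from 42012 barcodes in all 10 libraries, of which 32698 passed the quality filters. They were set against low-marker cells, the Ptprc-negative cells of the same library with a UMI of at most 1 of the 6 genes, of which there were 1031 in replicate 1 and 391 in replicate 2. The cells were thus selected on the measured UMI counts of the 6 genes, Ptprc, Dlk1, Gzme and Hopx, so their levels are given as a description, and no test was made within these 2 libraries.

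The scRNA-seq data came from EpCAM+ epithelial cells of the distal mouse lung, sorted by their lineage reporter into RFP+ and YFP+ fractions, with at least 2 lungs pooled for each sample. All mice were 8 weeks old and carried Sftpc-CreERT2, a tamoxifen-inducible Cre driven in alveolar type 2 (AT2) cells, and received 3 doses of 0.2 mg tamoxifen per g body weight. In the mutant line, RFP+ cells carried the mutation and YFP+ cells of these mice were wildtype, with 2 libraries of each colour at 4 days and 2 at 2 weeks. In Sftpc-CreERT2; R26R-Confetti mice, both colours were wildtype, with 1 RFP+ and 1 YFP+ library. Their time point was not in the sample labels, and the methods of the study give 2 weeks post-induction. Libraries held between 10742481 and 79927159 UMIs, the deepest being the 2 mutant libraries at 2 weeks. The 4-day RFP+ libraries stood apart from each other in their share of marker-high cells, and counts resting on them are given with and without each of them.

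AT2 cells make and secrete pulmonary surfactant and act as progenitors of the thin alveolar type 1 (AT1) cells that exchange gas. On the way from AT2 to AT1, cells can pass through a damage-associated transitional state (DATP-like), known for keratin genes such as Krt8 and Krt19, tight-junction claudins, stress-response genes and a reduced surfactant program. Procr encodes the endothelial protein C receptor, which binds protein C to restrain clotting, whereas F3 encodes tissue factor, the cell-surface protein that starts it. Krt7 and Krt19 encode simple-epithelial keratins, Cldn4 a tight-junction claudin, and S100a14 a calcium-binding protein.

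The stretches that precede the annotated starts of Procr, F3 and Cldn4 are shown because all hold TGANTCA, the core recognised by AP-1 transcription factors, here in capitals. The letters were searched in the 250 bases upstream of the start, and the motif reads the same on either strand apart from its middle base. Each line gives the RefSeq promoter sequence of GRCm38.p6, 5′ to 3′ on the strand of the gene, without bases inside an annotated gene. Procr (ENSMUSG00000027611) covers chr2:155751117-155755471 on the + strand and its stretch is chr2:155750967-155751116, F3 (ENSMUSG00000028128) covers chr3:121723537-121735048 on the + strand with the stretch chr3:121723287-121723536, and Cldn4 (ENSMUSG00000047501) covers chr5:134945119-134946934 on the - strand with the stretch chr5:134946935-134947184.
Procr: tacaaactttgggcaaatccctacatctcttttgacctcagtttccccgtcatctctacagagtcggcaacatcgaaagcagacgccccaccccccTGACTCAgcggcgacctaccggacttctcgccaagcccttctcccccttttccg
F3: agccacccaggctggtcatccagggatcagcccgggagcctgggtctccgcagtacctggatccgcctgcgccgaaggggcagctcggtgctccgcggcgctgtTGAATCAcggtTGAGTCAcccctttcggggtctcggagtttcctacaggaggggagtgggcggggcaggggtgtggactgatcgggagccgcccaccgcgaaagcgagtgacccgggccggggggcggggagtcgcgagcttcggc
Cldn4: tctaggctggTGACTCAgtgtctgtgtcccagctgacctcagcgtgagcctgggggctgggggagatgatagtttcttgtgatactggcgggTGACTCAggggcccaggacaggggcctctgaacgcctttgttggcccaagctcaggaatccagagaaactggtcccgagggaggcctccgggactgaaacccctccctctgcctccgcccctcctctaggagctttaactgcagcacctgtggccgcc
The Procr stretch held 1 match, TGACTCA, starting 54 bases before its end. In F3, TGAATCA and TGAGTCA began 146 and 135 bases before the start of the gene, and in Cldn4 TGACTCA occurred 240 and 158 bases before it. The upstream window of Krt7 lay inside the annotated gene and held no match, and Krt19 and S100a14 were not matched to the table. Of all 27025 genes with a promoter in the table, 7.82% held the motif in this window, so a match in 3 of the 4 genes that could be searched is a description of a few selected genes.

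Marker-high cells made up 24.3% (exact 95% binomial interval 23.0 to 25.7%) of the 4096 filtered Ptprc-negative cells of replicate 1 and 29.0% (27.4 to 30.7%) of the 2829 of replicate 2, a mean of 26.65% ± 3.32 (SD, n = 2). Applied to the other libraries, the same criteria selected 2.47% (94 cells) in RFP+ 4-day replicate 1 and 20.8% (329 cells) in RFP+ 4-day replicate 2. The replicates of the 4-day time point thus lay further apart than those of the 2-week time point. In YFP+ cells of the mutant line, sorted as wildtype, the shares were 1.04% and 0.335% at 4 days and 0.581% and 2.2% at 2 weeks. Each 2-week YFP+ library held 25 marker-high cells. The Confetti libraries gave 0.46% in RFP+ and 0.34% in YFP+ cells. Cells with enough of the marker genes that failed the Gzme limit numbered 9 and 7 in the 2-week YFP+ libraries. Those that failed the Dlk1 limit numbered 4 and 2. Neither kind was found in the Confetti and 4-day YFP+ libraries, whereas cells that failed the Hopx limit occurred in all of these libraries. Whether some cells of the YFP+ sort were RFP+ cells was not tested. The intervals cover counting error only, and no test was made of the shares, since the criteria were set on the 2-week RFP+ libraries.

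**Figure D1:**
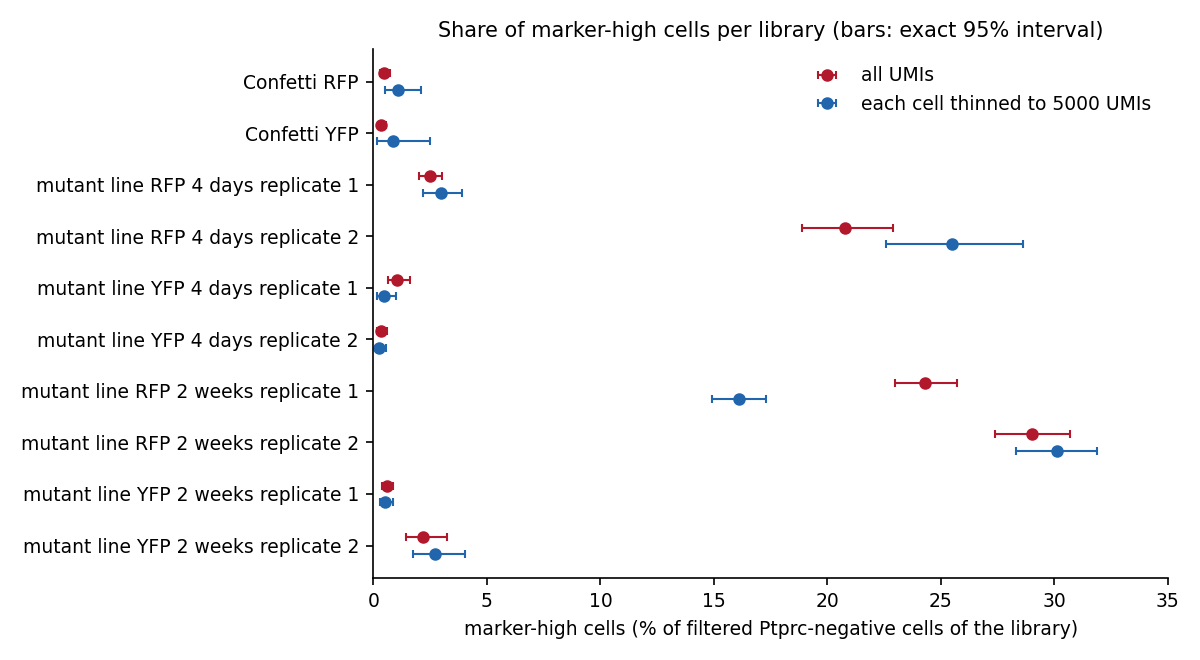
Share of marker-high cells (x axis, % of filtered Ptprc-negative cells) in each of the 10 libraries, from all UMIs in red and after thinning every cell to 5000 UMIs in blue, with exact 95% intervals as bars. Both 2-week RFP+ libraries lie above 15% on either measure, and the 4-day RFP+ libraries lie at 2.47% and 20.8% from all UMIs.

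The shares were recounted at equal depth. Marker-high cells had a median of 20282 and 14019 UMIs in replicates 1 and 2, against 11001 and 9782 in low-marker cells. When every cell was thinned to 5000 UMIs, leaving out 285 and 257 shallower cells, 16.1% and 30.1% of the cells of the 2-week RFP+ libraries still met the criteria. The corresponding shares were 2.96% and 25.5% in the 4-day RFP+ libraries and 0.503% and 2.72% in the 2-week YFP+ libraries. Among these libraries the share was thus lower after thinning in RFP+ 2-week replicate 1 and YFP+ 2-week replicate 1, and higher in the other 4. In all 6 the cells too shallow to thin were left out of the denominator. Median mitochondrial shares were 2.06% and 1.79% in marker-high cells and 2.95% and 2.22% in low-marker cells. Cells with the highest doublet scores made up 5.02% and 2.56% of marker-high cells and 1.07% and 0.512% of low-marker cells, and without them the mean share was 26.4%. Of the marker-high barcodes, 13 in replicate 1 and 10 in replicate 2 also occurred in another library.

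The 6 genes were not equally common among the cells they selected. Procr was seen in 35% of marker-high cells of replicate 1 and 65.3% of those of replicate 2, at 96.1 and 583 UMIs per 1000000 (CPM, summed over the cells of a library), against 0.607 and 1.59 CPM in low-marker cells. F3 was seen in 71.0% and 73.3%, at 412 and 1238 CPM against 2.34 and 0.531 CPM. Krt7 was seen in 99.8% and 99.6% of cells, Krt19 in 98.9% and 98.5% and S100a14 in 97.4% and 99.0%, while Cldn4 was seen in 82.6% and 88.1%. Ptprc-positive cells of the same libraries showed Procr in 13.4% and 11.2% of cells at median depths of 8610 and 12711 UMIs. The majority of marker-high cells in replicate 1 thus showed no Procr UMI. Detection in these cells does not rank the 6 genes, since the same counts selected the cells. Krt7 was also seen in 32.9% and 28.6% of low-marker cells, against 0.582% and 1.02% for Procr. In cells with 2 or 3 of the 6 genes, Krt7 was seen in 89.8% and 90.8%, and Procr in 1.62% and 2.06%.

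Both genes were detected together in 291 marker-high cells of replicate 1 (29.2%) and 458 of replicate 2 (55.8%). F3 without Procr was the commonest pattern in replicate 1, with 416 cells (41.8%), and accounted for 144 cells (17.5%) in replicate 2. Procr without F3 was rare, in 58 and 78 cells, and 231 (23.2%) and 141 (17.2%) cells had neither. All 6 genes were detected in 271 cells (27.2%) of replicate 1 and 425 (51.8%) of replicate 2, and exactly 4 in 423 (42.5%) and 229 (27.9%). The cells at the edge of the criteria mostly lacked Procr, which was missing from 92.9% and 83% of the cells with exactly 4 genes, while F3 was missing from 61.0% and 77.3%. Just outside the criteria were 653 and 378 cells with 3 of the 6 genes that met every other limit.

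The limits on Dlk1, Gzme and Hopx removed part of the cells with at least 4 of the 6 genes. Of the cells with at least 4 of the 6 genes, 1520 in replicate 1 and 1467 in replicate 2, a count of 262 and 105 had 3 or more Dlk1 UMIs, 327 and 116 had 10 or more Gzme UMIs and 116 and 483 had 3 or more Hopx UMIs. Few cells lay at the first 2 of these limits. Among cells that met all other criteria, 11 and 3 had the 2 Dlk1 UMIs last allowed and 6 and 2 had the 3 first refused, while for Gzme 3 and 1 had 9 UMIs and 6 and 0 had 10. Hopx, a homeobox gene of AT1 cells, gave a less sharp edge, with 39 and 95 cells at 2 UMIs and 24 and 66 cells at 3 UMIs.

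Beyond the selecting genes, the marker-high cells of the 2-week RFP+ libraries were compared with low-marker cells over all genes. Of 4943 genes with at least 20 CPM in the higher population of each library, 124 were at least 4-fold higher in both libraries (2.51%) and 31 at least 4-fold lower (0.627%), together 155 genes (3.14%), on the scale of CPM plus 1. The median log2 ratio over all 4943 genes was 0.24 in replicate 1 and 0.21 in replicate 2, and single genes are to be read against that shift. Ranked by the smaller of the 2 library ratios, the leading gene was Sprr1a, a small proline-rich protein of stressed epithelium, at 555 and 365 CPM against 3.64 and 0.797 CPM. S100a6, another calcium-binding S100 protein, reached 10480 and 12560 CPM against 83.9 and 178 CPM. Aldh1a3, an enzyme of retinoic acid synthesis, stood at 173 and 191 CPM against 0.693 and 0.266 CPM.

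The other genes among the 12 with the largest ratios were of several kinds. Itga2, the integrin subunit that pairs with Itgb1 to bind collagen, was at 218 and 328 CPM against 2.51 and 1.86 CPM. Hmga2, a chromatin protein of embryonic and malignant cells, was at 128 and 130 CPM against 1.91 and 0.266 CPM. Gcnt3, a mucin-type glycosyltransferase, had 31.4 and 47.1 CPM and no UMI in low-marker cells of either library. Msln, which encodes the surface protein mesothelin, was at 103 and 136 CPM against 1.82 and 1.06 CPM. Il24, Emp1, Prss22, Serpinb2 and the long non-coding RNA Wincr1 completed this group.

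The lowest genes included products of other cells and of AT2 metabolism. The mesenchymal genes Tagln and Acta2 and the macrophage genes Chil3 and Ccl6 led these genes. Acta2 was at 0.368 and 0.963 CPM in marker-high cells against 62.1 and 42.2 CPM in low-marker cells, and Chil3 at 0.735 and 8.1 CPM against 48.9 and 299.5 CPM. In Ptprc-positive cells Chil3 was at 3349 and 13990 CPM, and the part of such transcripts in the ratios was not tested. Among AT2 genes, Scd1, a fatty acid desaturase needed for surfactant lipids, was at 1119 and 524 CPM against 6444 and 6522 CPM. Hc, which encodes complement component C5, was at 221 and 36.7 CPM against 1257 and 723 CPM, and Cbr2, Ces1d, Mme, Itih4, Cst8 and Apoe lay lower as well. Sftpc, the surfactant protein used to drive the Cre, was at 35260 and 31200 CPM against 121900 and 126700 CPM, while Ptprc-positive cells of these libraries were at 26190 and 5483 CPM.

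**Figure D2:**
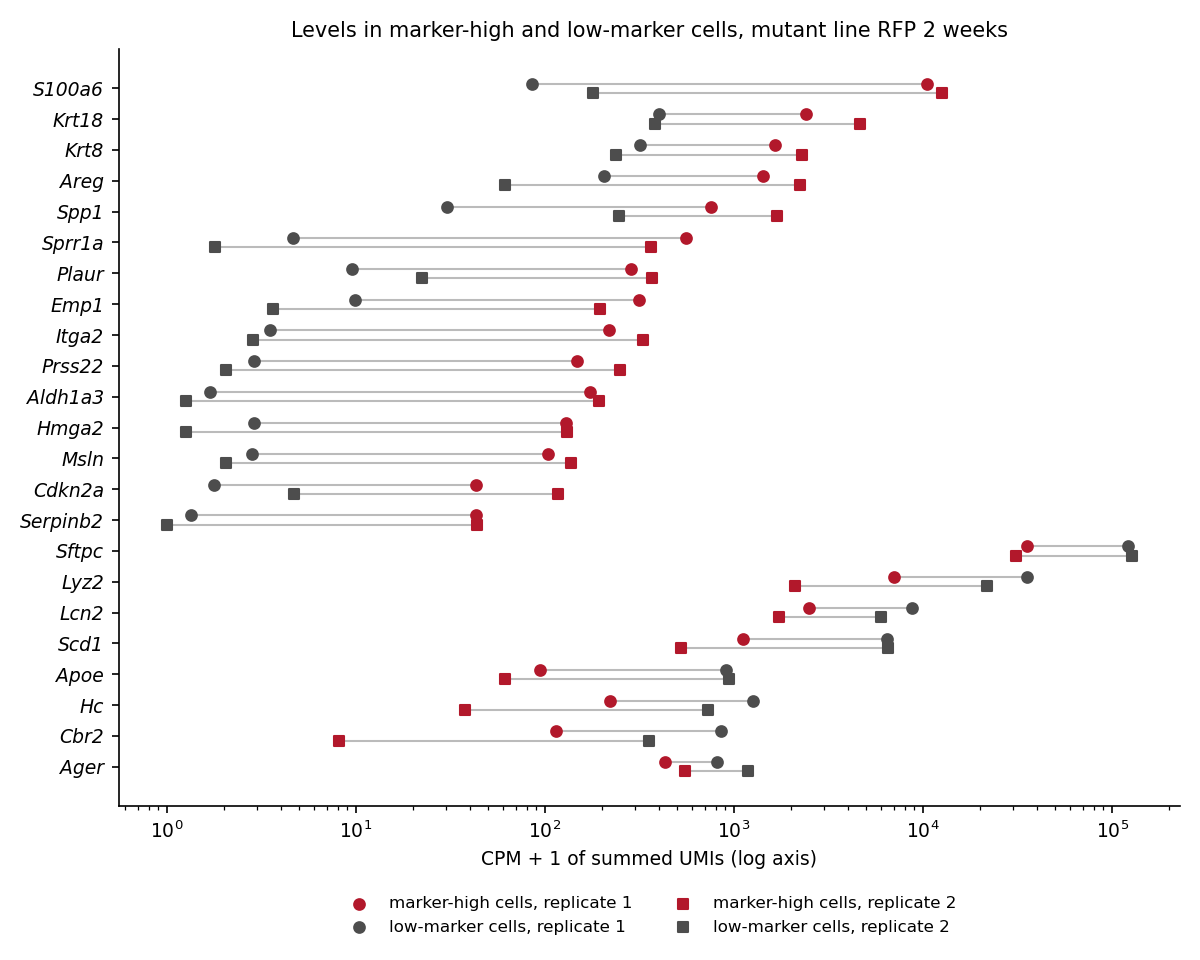
Level of 23 genes (CPM + 1, log axis) in marker-high cells (red) and low-marker cells (grey) of the 2-week RFP+ libraries, with circles for replicate 1 and squares for replicate 2, and a line joining the populations of 1 library. S100a6 stands at 10480 and 12560 CPM in marker-high cells and 83.9 and 178 CPM in low-marker cells, and Sftpc shows the opposite order.

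Levels also varied with the number of selecting genes. Cells of the 2-week RFP+ libraries that met every limit were ordered by how many of the 6 genes they showed, with a median depth of 8842 and 6494 UMIs at 0 genes, 16565 and 14308.5 UMIs at 3, 19453 and 12362 UMIs at 5 and 23061 and 14442 UMIs at 6. Sftpc stood at 125200 and 112700 CPM with 0 genes, 62510 and 80660 CPM with 4, 27550 and 33820 CPM with 5 and 6284 and 6633 CPM with all 6. Lcn2, which encodes the secreted iron-chelator lipocalin 2, went from 8310 and 4073 CPM at 0 genes to 4190 and 4580 CPM at 4 and 394 and 354 CPM at 6. Lyz2, encoding lysozyme, was at 36960 and 19490 CPM at 0 genes, 12940 and 6011 CPM at 4 and 737 and 287 CPM at 6. Marker-high cells with exactly 4 genes thus lay between the ends for Sftpc and Lyz2 in both libraries, and for Lcn2 in replicate 1.

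Krt8 showed the opposite order, from 271 and 173 CPM at 0 genes to 942 and 960 CPM at 4 and 2553 and 2975 CPM at 6. Just outside the criteria, cells with 3 genes had 639 and 583 CPM of Krt8. Itga2 stood at 16.3 and 16.9 CPM with 3 genes, 40.9 and 68.7 CPM with 4 and 444 and 485 CPM with 6. Areg, a ligand of the EGF receptor, went from 450 and 242 CPM at 3 genes to 733 and 469 CPM at 4 and 2458 and 3114 CPM at 6. Cdkn2a, whose products p16 and p19Arf restrain the cell cycle, was at 4.34 and 19.1 CPM at 3 genes, 16.2 and 35.7 CPM at 4 and 81.6 and 150 CPM at 6. Pdpn, an AT1 membrane protein, did not follow them and stood at 55.0 and 109.5 CPM at 4 genes against 44.7 and 45.7 CPM at 6.

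**Figure D3:**
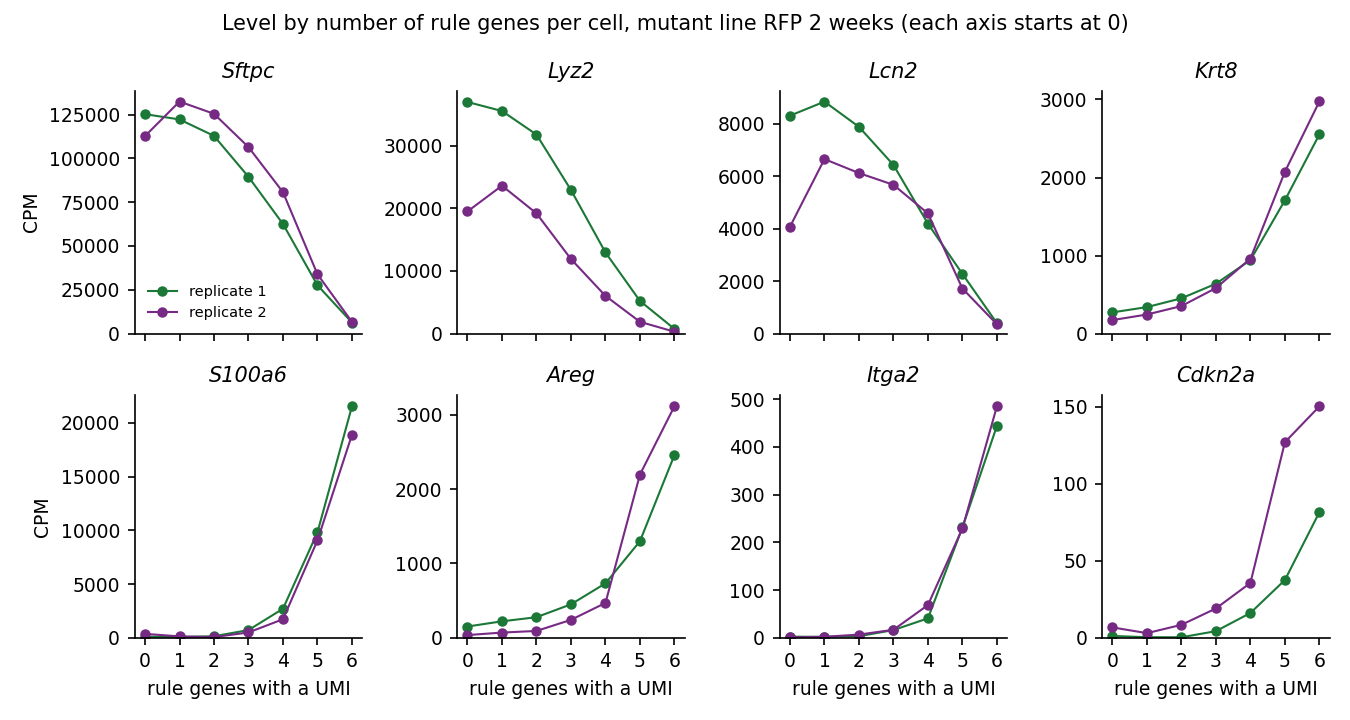
Level of 8 genes (CPM, each axis from 0) against the number of the 6 selecting genes with a UMI, for cells within the Dlk1, Gzme and Hopx limits of the 2-week RFP+ libraries (replicate 1 green, replicate 2 purple; the panels call the selecting genes rule genes). Sftpc, Lyz2 and Lcn2 are lowest at 6 genes while Krt8, S100a6, Areg, Itga2 and Cdkn2a are highest there.

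Spread within the marker-high cells was correspondingly wide. The middle 50% of marker-high cells of replicate 1 lay between 6.65 and 656 Sftpc UMIs per 10000 UMIs of the cell, with a median of 84.1. In replicate 2 these values were 1.33, 516 and a median of 4.71. In low-marker cells the middle 50% ran from 904 to 1460 and from 837 to 1560. The lower quartile of the marker-high cells therefore held almost no Sftpc, while their upper quartile reached toward the levels of low-marker cells. S100a6 varied in the same manner, with a median of 45.7 per 10000 UMIs and an interquartile range of 2.74 to 189 in replicate 1, and a median of 108 and a range of 23.6 to 187 in replicate 2.

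The marker-high cells were also split by Procr and F3. This split largely repeats the one by number, since cells with neither gene necessarily had exactly the other 4, and 271 of the 291 cells with both in replicate 1 and 425 of the 458 in replicate 2 had all 6. Of 4963 genes, 80 were at least 4-fold higher in both libraries in cells with UMIs of both genes than in cells with neither, and 101 were at least 4-fold lower. Median depths of the 2 classes were 22527 and 20395 UMIs in replicate 1 and 14223.5 and 14881 UMIs in replicate 2. Leading the higher genes was Tff1, a trefoil peptide of gastric mucus, at 70.0 and 120 CPM in cells with both genes and 0 and 0.462 CPM in cells with neither. The collagenase Mmp13 was at 152 and 35.6 CPM against 0.199 and 0 CPM, and the stromelysin Mmp3 at 26.1 and 24.02 CPM against 0 in both libraries. Lif, a cytokine of the interleukin-6 family, stood at 120 and 72.1 CPM against 4.18 and 1.85 CPM.

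Among the genes higher in cells with neither Procr nor F3 were several of AT2 cells. Sftpc was at 54690 and 80450 CPM in these cells against 7605 and 8188 CPM in cells with both. Chil1, a chitinase-like protein of AT2 cells, was at 1089 and 2246 CPM against 109.5 and 160 CPM, and the major histocompatibility class II gene H2-Aa at 671 and 563 CPM against 83 and 59.2 CPM. Elf5, an epithelial transcription factor, was at 56.9 and 115 CPM against 6.13 and 9.61 CPM. Cd177, a surface glycoprotein, was at 15.1 and 92.8 CPM against 3.50 and 4.39 CPM. Retnla, Lyz2, Lgi3, Itm2a and Lbp were the other leading genes of this class.

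The neighbouring cells that the limits removed shared the keratins but differed in single genes. Krt8 was at 1653 and 2277 CPM in marker-high cells, 1419 and 1271 CPM in Dlk1-high, 1959 and 2125 CPM in Gzme-high and 1524 and 2159 CPM in Hopx-high cells. Aldh1a3 was highest in the marker-high cells of both libraries, where it stood at 173 and 191 CPM against 28.5 and 1.43 CPM in Dlk1-high, 68.6 and 97.8 CPM in Gzme-high and 16.5 and 9.95 CPM in Hopx-high cells. Msln showed the same order at the top, with 103 and 136 CPM against at most 86.1 and 82.5 CPM, both in Hopx-high cells. Spp1, which encodes the secreted matrix protein osteopontin, was lower in marker-high cells, at 756 and 1683 CPM, than in Gzme-high cells, at 15410 and 5984 CPM. Cd177 was seen in 5.52% and 9.62% of marker-high cells and in 38.9% and 42.9% of Dlk1-high cells, which were deeper, at medians of 23241.5 and 19357 UMIs, and after thinning to 5000 UMIs the shares were 2.88% and 7.26% against 26.4% and 31.4%. In Ptprc-positive cells the thinned shares were 1.83% and 0.462%, so that of marker-high cells in replicate 1 lay near that of its Ptprc-positive cells. In low-marker cells of replicate 1 the thinned share was 0.713%. Ptprc-positive cells of replicate 1 are not a clean background for free RNA. They held S100a6 at 2324 CPM, against 83.9 CPM in low-marker cells. The classes removed by the limits overlap one another, and all were cut by the same counts, so the differences carry no test.

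To test whether the split by the 6 genes went with other genes in cells that had not been used to set it, marker-high and low-marker cells were compared in the RFP+ 4-day and YFP+ 2-week libraries. Marker-high cells numbered 94 and 329 in the RFP+ libraries and 25 and 25 in the YFP+ libraries, and low-marker cells 2965, 849, 3559 and 904. UMIs were summed per library and population and compared with edgeR's quasi-likelihood test with the library as a block, at a Benjamini-Hochberg adjusted p of 0.05. Of 11350 genes tested, 2534 (22.3%) passed, 1121 higher (9.88%) and 1413 lower (12.4%) in marker-high cells, with a median log2 fold change of -0.08 over all genes. The count was 2416 without RFP+ 4-day replicate 1, 1439 without RFP+ 4-day replicate 2, 1359 without YFP+ 2-week replicate 1 and 1500 without YFP+ 2-week replicate 2. All 124 genes at least 4-fold higher in the 2-week RFP+ libraries were tested and passed as higher, with a median log2 fold change of 3.73. Of the 31 lower genes 30 were tested and 29 passed as lower, with a median of -3.41. Of the leading lower genes, Acta2 was not tested here. Tagln passed in only 1 of 9 alternatives, with edgeR or DESeq2 adjusted p from 0.0362 to 0.723. The p-values measure the spread between these libraries. Whether some marker-high cells of the YFP+ libraries were RFP+ cells was not tested.

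Coagulation and plasminogen turnover are the systems to which Procr and F3 belong. Of 21 listed genes 15 were tested, and 8 passed as higher and 3 as lower (9.88% and 12.4% over all genes), with a median log2 fold change of 1.56. Over the alternatives 6 to 9 passed as higher and 0 to 4 as lower. Plaur, the receptor that focuses urokinase on the cell surface, was at 219, 439, 255 and 434 CPM in marker-high cells of RFP+ 4-day replicates 1 and 2 and YFP+ 2-week replicates 1 and 2, and at 3.65, 49.8, 4.36 and 43.7 CPM in low-marker cells. Every marker-high value lay above every low-marker value (log2 fold change 4.28, SE 0.52, edgeR adjusted p = 0.000779). Plaur was also at 321 and 374 CPM in Ptprc-positive cells of the 2-week RFP+ libraries, as high as in the marker-high cells there, at 282.5 and 367 CPM. F2r, the thrombin receptor, was at 33.6, 84.2, 112 and 147 CPM against 10.2, 5.38, 6.68 and 3.92 CPM and did not overlap between populations (log2 fold change 3.51, edgeR adjusted p = 0.00101).

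Serpinb2, an inhibitor of urokinase, was at 16.3, 63.1, 145.5 and 14.7 CPM in marker-high cells, with 2 UMIs in low-marker cells of all 4 libraries together, for a pooled ratio of 1244 with a 95% counting interval of 340 to 10340 (edgeR adjusted p = 6.56e-06). Plat, the tissue plasminogen activator, was higher in 3 of 4 libraries, at 1.08, 72.0, 72.7 and 19.6 CPM against 1.52, 0, 0.616 and 0.171 CPM (log2 fold change 5.26, SE 1.04, edgeR adjusted p = 0.00651). Its range of adjusted p over the alternatives was 5.41e-05 to 0.0641, so it did not pass in all of them. The 3 genes that passed as lower were F7 and F10, clotting factors activated downstream of tissue factor, and Vwf, an endothelial adhesion protein. They were named after their values were seen, and where the filter on low counts kept them F7 passed in 13 of 13 alternatives, F10 in 10 of 10 and Vwf in 6 of 10. In the 2-week RFP+ libraries F7 was at 0.827 and 0.642 CPM in marker-high cells against 7.80 and 15.9 CPM in low-marker cells.

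Genes of the damage-associated transitional state were higher for the most part. Of the 22 genes listed 18 passed as higher and none as lower, beside 9.88% and 12.4% over all genes, with a median log2 fold change of 2.49, and between 17 and 19 passed as higher over all settings. Krt8 was at 1375, 1430, 1631 and 1774 CPM in marker-high cells and 277, 286, 325 and 170 CPM in low-marker cells, without overlap (log2 fold change 2.38, SE 0.22, edgeR adjusted p = 0.00016). Itga2 was at 67.2, 418, 221 and 250 CPM against 0.62, 10.8, 0.19 and 0 CPM (log2 fold change 7.21, SE 0.75, edgeR adjusted p = 0.000352). Tnip3, an inhibitor of NF-kB signalling, Ecm1, an extracellular matrix protein, and Emp1, an epithelial membrane protein, were higher by log2 4.53, 4.78 and 5.14. Nupr1, a stress-induced nuclear protein, was among the 4 genes that did not pass, with a log2 fold change of 0.04.

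Keratins, junctions and integrins followed. In the list of keratins and junctions 10 of 18 tested genes passed as higher and none as lower (9.88% and 12.4% over all genes), with 7 to 13 higher over the alternatives, among them Krt18 (log2 fold change 2.6), the desmosome-associated Perp (1.93) and the tight-junction gene Ocln (1.72). Cldn18, the major alveolar claudin, had a log2 fold change of -0.01 and did not pass. In the list of integrins, laminins and matrix 17 of 24 passed as higher and 1 as lower, with a median of 1.76. Itgb4, the integrin subunit of hemidesmosomes, was at 7.59, 57.4, 63.7 and 46.6 CPM in marker-high cells against 0.276, 0.701, 0.332 and 0.341 CPM, so that no values overlapped (log2 fold change 6.34, SE 0.45, edgeR adjusted p = 4.49e-05). Of the S100 genes outside the selection, 5 of 10 passed as higher and 1, S100g, as lower. S100a6 was at 8626, 23350, 16360 and 29820 CPM against 111, 651.5, 51.1 and 161 CPM (log2 fold change 6.63, SE 0.505, edgeR adjusted p = 5.86e-05).

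The AT2 program was lower throughout its list, with 19 of 19 tested genes passing as lower and a median log2 fold change of -2.30. Sftpc was at 54290, 5365, 26830 and 20780 CPM in marker-high cells against 138700, 97070, 135700 and 160100 CPM in low-marker cells (log2 fold change -2.91, SE 0.39, edgeR adjusted p = 0.00111). The populations did not overlap, and RFP+ 4-day replicate 2 had the lowest value of the marker-high cells. Genes of primed AT2 cells, an inflammation-associated AT2 subset, went the same way, with 6 of 11 lower and 1 higher. Lrg1, a secreted glycoprotein of that subset, was at 125, 141, 446 and 142 CPM against 537, 1901, 1936 and 2160 CPM (log2 fold change -3.17, SE 0.35, edgeR adjusted p = 0.000484). Of 13 AT1 genes 4 passed as higher and 3 as lower, beside 9.88% and 12.4% over all genes, with 1 to 4 higher and 0 to 5 lower over the alternatives. Pdpn was at 23.8, 36.2, 36.4 and 61.3 CPM against 7.99, 12.9, 5.5 and 8.19 CPM (log2 fold change 1.91, edgeR adjusted p = 0.00215), whereas Ager, the AT1 receptor for advanced glycation end products, had a log2 fold change of -1.52 (edgeR adjusted p = 0.00396, 0.0649 at its highest over the alternatives). The 2 AT1 genes thus moved in opposite directions.

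**Figure D4:**
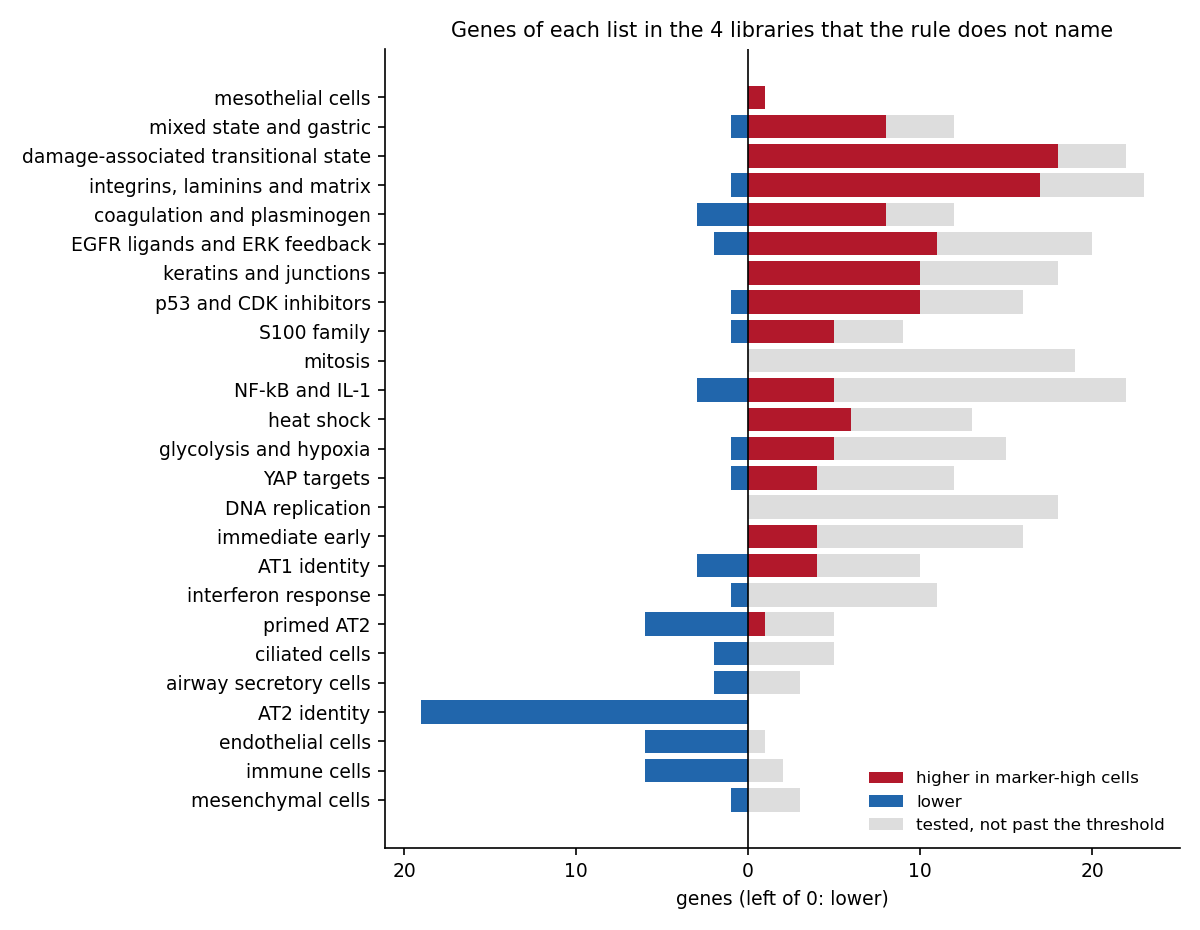
Number of genes of each list (x axis) that passed edgeR's test as higher (red, right of 0) or lower (blue, left of 0) in marker-high cells of the 4 libraries outside the selection, with genes that did not pass in grey, ordered by median log2 fold change. AT2 identity shows 19 of 19 genes lower, and the transitional-state list 18 of 22 higher.

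Among growth-factor ligands and targets of ERK signalling 11 of 22 genes passed as higher and 2, Spry1 and Etv5, as lower, with a median of 1.27. Areg was at 1508, 1384, 1840 and 1483 CPM in marker-high cells against 136, 134, 281 and 55.3 CPM (log2 fold change 3.36, SE 0.31, edgeR adjusted p = 0.00016). Ereg, another EGF receptor ligand, and Fosl1, an AP-1 subunit induced by ERK, were higher by log2 6.2 and 4.41. Etv5, a transcription factor that maintains AT2 identity, also belongs to the AT2 list. Of 25 genes of NF-kB and IL-1 signalling 5 passed as higher and 3 as lower, beside the 9.88% and 12.4% called over all genes. Il1r1, the interleukin-1 receptor, did not pass, at 15.2, 10.98, 12.1 and 9.80 CPM against 17.5, 7.95, 11 and 9.89 CPM (log2 fold change -0.08, edgeR adjusted p = 0.911). Nfkbia, the inhibitor of NF-kB, was higher in 3 of 4 libraries with a log2 fold change of 0.8 and an edgeR adjusted p = 0.0797, and passed in 3 of 14 settings.

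Genes of the mixed and gastric list were higher as well, with 8 of 13 passing as higher and 1, Gkn3, as lower, beside 9.88% and 12.4% over all genes, at a median log2 fold change of 5.05. Ctse, the gastric protease cathepsin E, was at 5.42, 32.1, 24.3 and 169 CPM against 0.138, 0.468, 0.19 and 0.512 CPM (log2 fold change 6.74, SE 0.47, edgeR adjusted p = 4.49e-05). Gkn2, a gastrokine, was higher in 3 of 4 libraries (log2 fold change 5.38, edgeR adjusted p = 0.00164). Cd177 and the ectoenzyme gene Cd38 did not pass, with log2 fold changes of 2.51 and 1.45 and edgeR adjusted p of 0.2 and 0.194. Spp1 was at 67.2, 509, 685 and 1179 CPM against 6.82, 41.4, 3.18 and 119 CPM, higher in each library although the ranges overlapped (log2 fold change 4.07, SE 0.67, edgeR adjusted p = 0.00267). Among the genes with the largest fold changes of all, Gcnt3 and Anxa10, an annexin of gastric epithelium, had no UMI in low-marker cells of these libraries and were at least 741-fold and at least 589-fold higher over the group, against a floor of 3 counts. Msln had a pooled ratio of 1811 with a counting interval of 616 to 8810.

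Of the list of p53 and CDK-inhibitor genes 10 of 17 passed as higher and 1, Cdkn1b, an inhibitor of cyclin-dependent kinases, as lower, beside 9.88% and 12.4% over all genes, with a median of 1.05 and 8 to 11 higher over the alternatives. Cdkn2a was at 17.3, 12.2, 90.9 and 76.0 CPM in marker-high cells against 0.276, 1.87, 0.142 and 3.24 CPM (log2 fold change 5.22, SE 0.82, edgeR adjusted p = 0.00212). Cdkn2b, which encodes the CDK4 and CDK6 inhibitor p15, Gdf15, a stress-induced cytokine, and Trp53 itself were higher by log2 2.88, 1.88 and 1.4. None of 18 genes of DNA replication and none of 19 of mitosis passed by edgeR, with 0 in either list at an unadjusted p below 0.05 and 0 by DESeq2. Over the alternatives 0 to 6 of the mitosis genes passed, 6 of them without RFP+ 4-day replicate 2. In simulated data of this comparison 16 of 100 genes changed by 1 on the log2 scale were recovered, so small changes could rarely be called. In the 2-week RFP+ libraries all 4 replication genes and all 5 mitosis genes measured were higher in both libraries. Their median log2 ratios were 0.42 and 0.77 for replication and 0.97 and 1.03 for mitosis, against 0.24 and 0.21 over all genes. At 2 weeks, marker-high RFP+ cells with UMIs of at least 2 of Mki67, Top2a, Cdk1 and Ccnb1 made up 28.2% of replicate 1 and 7.67% of replicate 2, and after thinning to 5000 UMIs 16.8% and 3.11%. The thinned shares were 9.03% and 2.03% in low-marker cells and 16.5% and 10.6% in Ptprc-positive cells, so the share of replicate 2 lay below that of its Ptprc-positive cells. Mki67, a marker of dividing cells, was at 29.0 CPM with 0, 68.1 CPM with 4 and 19.99 CPM with 6 genes in replicate 1. In replicate 2 it was at 23.7 CPM with 0, 39.8 CPM with 3, 12.7 CPM with 4 and 5.66 CPM with 6 genes, so the libraries differed in where it was highest.

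Counts of 5 other lists stand beside the 9.88% called higher and 12.4% called lower over all genes. YAP targets passed as higher in 4 of 13 genes and as lower in 1, with Ankrd1, a muscle ankyrin-repeat protein induced by YAP, higher in 3 of 4 libraries by log2 6.32 and Amotl2, a junctional YAP-binding protein, lower with a log2 fold change of -1.15. Glycolysis genes passed as higher in 5 of 16 and lower in 1, heat shock genes as higher in 6 of 13, and immediate early genes as higher in 4 of 16, Myc among them with a log2 fold change of 2.36. Of 12 interferon-response genes 1 passed as lower and 0 as higher by edgeR, with 0 higher at an unadjusted p below 0.05 and 0 by DESeq2. Over the alternatives the number higher ran from 2 to 5 for YAP targets and from 2 to 6 for each of glycolysis, heat shock and immediate early genes, and the number lower reached 3 for immediate early genes. The median log2 fold change was 0.4 for YAP targets, 0.46 for glycolysis and 0.01 for immediate early genes.

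The lists were recounted with each 4-day RFP+ library left out in turn. Over all genes, 9.49% passed as higher and 12.3% as lower without replicate 1, and 6.68% and 6.49% without replicate 2. Of the 90 named genes that passed, 86 still passed in the same direction without replicate 1, and without replicate 2 the number was 83 of the 89 that could be tested. The transitional-state list had 19 of 22 genes higher with either library left out, and the AT2 list 18 of 19 lower. Without replicate 2, coagulation genes lower went from 3 to 1, AT1 genes higher from 4 to 1, NF-kB and IL-1 genes higher from 5 to 9, immediate early genes higher from 4 to 2 and immune genes lower from 6 to 3. Without replicate 1, NF-kB and IL-1 genes higher went from 5 to 3, and immediate early genes from 4 higher and 0 lower to 2 higher and 3 lower. The mixed and gastric list had 8 of 12 higher without replicate 1 and 11 of 13 without replicate 2.

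Markers of other cells were checked because sorting leaves some behind. The immune list summed to between 1500 and 14410 CPM in marker-high cells and between 26900 and 43930 CPM in low-marker cells of the 4 libraries, with 6 of 8 tested genes lower, but Lyz2, which AT2 cells also express, made up most of it in the 2-week RFP+ libraries. The macrophage gene C1qa had no UMI in marker-high cells of the 4 libraries and was at least 31.8-fold lower there, and in the 2-week RFP+ libraries it was at 0.0919 and 20.3 CPM against 1.56 and 131 CPM. Endothelial genes, the list that holds Procr and Thbd, were lower in 6 of 7 tested, beside 12.4% over all genes, with 2 to 6 lower over the alternatives and 4 of 6 without RFP+ 4-day replicate 1. In the 2-week marker-high cells the endothelial genes Pecam1 and Cdh5 were at 1.66 and 0.481 CPM and 0.827 and 0.0802 CPM, and Emcn was at 0. The mesenchymal list summed to 58.2 and 24.4 CPM, with Lum at 0. Of the mesothelial list only Msln, Krt7 and Krt19 were above 2 CPM, and Wt1 was at 0.276 and 0 CPM. The basal-cell genes Krt5, Trp63 and Ngfr were at 0. The ciliated list summed to 25.5 and 13.9 CPM and the airway secretory list to 50.9 and 64.3 CPM, with 2 of 7 and 2 of 5 tested genes lower. Over the alternatives 0 to 5 ciliated and 0 to 3 airway secretory genes were lower, 0 of the ciliated genes without RFP+ 4-day replicate 1 and 1 airway secretory gene without replicate 2. Cells with a UMI of Pecam1, Col1a1 or Foxj1 were 3.01% and 0.731% of the marker-high cells, and leaving such cells out gave 2545 genes past the test in the 4 libraries.

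The AP-1-type letters were also counted over the genes that passed. TGANTCA was found within 250 bases upstream of 8.20% of the genes that passed as higher and had a promoter in the table, 6.28% of those that passed as lower and 5.57% of all tested. GGAATG, the core recognised by TEAD factors, was searched on both strands and found in 14.1%, 15.2% and 12.8%. These shares are descriptions without a test.

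Time since induction was addressed by comparing the marker-high cells of the 2-week and 4-day RFP+ libraries in a fit over 3 groups of 2 libraries, the third being YFP+ cells at 2 weeks. No gene of 9400 passed edgeR's test (0.0%), with 353 genes at an unadjusted p below 0.05, while DESeq2 called 3. Leaving out RFP+ 4-day replicate 2 gave 1 gene by edgeR, and leaving out RFP+ 4-day replicate 1 gave 0. Differences of this size could rarely have been called, as in simulated data of this comparison 16 of 100 genes changed by 2 on the log2 scale were recovered and 1 of 100 changed by 1. Krt8 was at 1653 and 2277 CPM at 2 weeks and 1375 and 1430 CPM at 4 days, and Areg at 1419 and 2246 against 1508 and 1384 CPM. Itga2 was at 218 and 328 CPM at 2 weeks and at 67.2 and 418 CPM at 4 days. Krt8, Areg and Itga2 each passed in 0 of 14 alternatives, and with 2 libraries per group the order of their values carries no test.

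The genes named next were chosen for the smallest p, which by itself selects separated values. Lrg1, Il33 and Cdkn2a are the exception, being picked from the lists for this comparison without a rule. Tmem252 was at 24.3 and 14.1 CPM at 2 weeks and 0 and 1.22 CPM at 4 days, and Vcam1, a leukocyte adhesion receptor, at 22.5 and 62.0 CPM against 3.25 and 6.10 CPM. The acute-phase gene Orm1 and the glycogen phosphorylase gene Pygl were higher at 2 weeks as well. Tslp, an epithelial cytokine, was lower at 2.85 and 1.60 CPM against 57.4 and 19.9 CPM, together with Bhlhe41, Notch2 and Spry2. Lrg1 was at 764 and 645 CPM against 125 and 141 CPM, the alarmin gene Il33 at 324 and 186 CPM against 76.9 and 58.2 CPM, and Cdkn2a at 42.2 and 116 CPM against 17.3 and 12.2 CPM. Each of them had an edgeR adjusted p = 0.957. Without the filter on low counts Tmem252, Vcam1, Orm1, Pygl, Tslp, Bhlhe41, Notch2 and Spry2 passed, and Tslp passed in 4 of 14 alternatives, with edgeR or DESeq2 adjusted p from 7.60e-09 to 1.0.

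Marker-high cells of mutant and wildtype colour were compared at 2 weeks in the same fit, which shares the 2-week RFP+ libraries with the comparison above. The colours are those of the sort, and whether some YFP+ marker-high cells were RFP+ cells was not tested. Again no gene of 9400 passed (0.0%), 203 had an unadjusted p below 0.05 and DESeq2 called 1. With 25 cells in each YFP+ library, the simulated data of this comparison gave 0 of 100 recovered at a log2 change of 1 and 0 of 100 at a change of 2, so the absence of calls carries no information on similarity. Krt8 was at 1653 and 2277 CPM in RFP+ and 1631 and 1774 CPM in YFP+ cells, Itga2 at 218 and 328 against 221 and 250 CPM, and Sftpc at 35260 and 31200 against 26830 and 20780 CPM. Spry2, a feedback inhibitor of receptor signalling, was at 150 and 70.8 CPM against 330 and 297 CPM (edgeR adjusted p = 1.0). The genes with the smallest p were Lcor, Faf1, Tipin and Snrnp25, higher in RFP+, and Ptcra, Plac8, Calml4 and 2900009J06Rik, lower. Lcor, a nuclear receptor corepressor, was at 19.5 and 14.1 CPM against no UMI in YFP+ cells, which makes it at least 4.32-fold higher over the group.

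**Figure D5:**
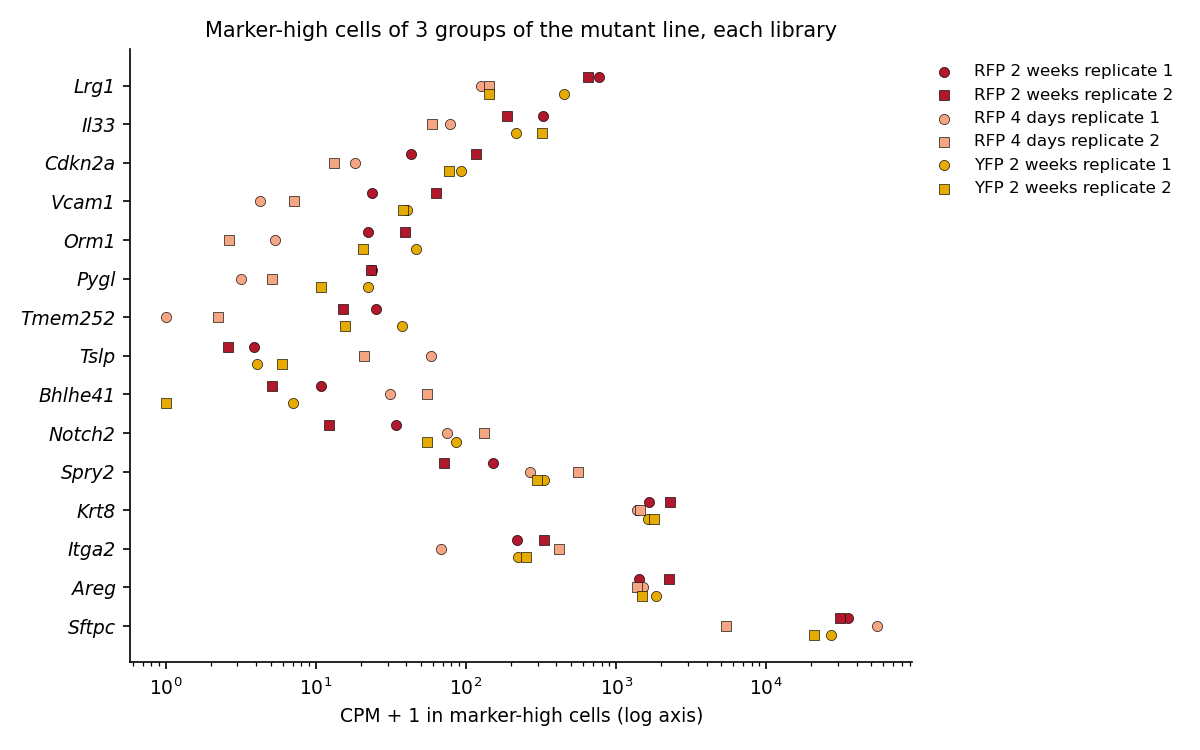
Level of 15 genes (CPM + 1, log axis) in the marker-high cells of each library of RFP+ 2 weeks (red), RFP+ 4 days (salmon) and YFP+ 2 weeks (gold), with circles for replicate 1 and squares for replicate 2. Lrg1 lies at 764 and 645 CPM at 2 weeks and 125 and 141 CPM at 4 days in RFP+ cells, whereas Krt8 lies between 1375 and 2277 CPM in all 6 libraries.

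The 2 libraries that define the population were also compared with each other. Of 5487 genes with at least 20 CPM in the marker-high cells of either, 5034 (91.7%) differed by less than 2-fold between replicates. The largest difference was in Xist, the RNA that silences an X chromosome in female cells, at 159.9 and 0.241 CPM in replicates 1 and 2, and low-marker cells differed in the same direction (log2 -7.60). Haemoglobin genes were also higher in replicate 1, with Hbb-bt at 60.9 and 0.562 CPM and Hbb-bs at 396 and 27.4 CPM. The part of sex and of blood RNA in other differences between the replicates was not tested. Procr itself was among the genes higher in replicate 2, and Lyz1, another lysozyme gene, among those lower, at 758 CPM in replicate 1 and 65.4 CPM in replicate 2. Ccl20, a chemokine, was at 95.3 and 8.18 CPM, and Pthlh, which encodes parathyroid hormone-related protein, at 29.6 and 136 CPM.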

How the data were processed

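Single cells of 10 libraries in 6 groups were measured by droplet 3′ scRNA-seq. Per the labels, the authors aligned reads to GRCm38 with Cell Ranger 3.1.0, whereas the file headers name 5.0.1, and the deposited values are raw UMI counts of 31053 genes. The labels name the v2 and the methods the v3 chemistry. Members and gene lists were chosen with earlier results of these data known.

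Counts were summed per library and population. Levels are UMIs per 1000000 of the sum (CPM). Sums were tested with edgeR 4.0.16 (quasi-likelihood, TMM, filterByExpr) in R 4.3.3, with Benjamini-Hochberg adjustment over all genes and a threshold of 0.05. The comparison within libraries had the library as a block, and the 10 genes used for selection were left out of its calls. At least 2 lungs were pooled per sample, and the sources used here do not say whether libraries came from separate lungs (RFP+ and YFP+ cells of a replicate may share them), so p-values measure only the spread between these libraries, which may be technical. Ratios within the 2-week RFP+ libraries used a pseudocount of 1 CPM and carry no test. Named genes were the 12 highest and 12 lowest with at least 20 CPM, up to 4 per list and up to 8 per direction and test, plus Krt8, Itga2, Cd177, Cd38, Spp1, Areg, Sftpc, Ager, Pdpn, Il1r1 and Nfkbia. Genes added outside this rule (F7, F10, Vwf, Nupr1, Cldn18, Etv5, Spry1, Gkn3, Cdkn1b, Lyz1, Ccl20 and Pthlh) were named after their values were seen, as were the 8 leading genes each way of the split by Procr and F3.

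Low-marker cells were not limited by Dlk1, Gzme or Hopx. Scrublet in scanpy 1.11.5 marked 30 cells automatically, so doublets were kept and 940 cells of highest score were removed as an alternative. Intervals are exact (Clopper-Pearson) and cover counting error only. Shares of cells with a UMI were repeated at 5000 UMIs per cell. Tests were checked on simulated data: within libraries, 16 of 100 genes changed by 1 and 66 of 100 changed by 2 on the log2 scale were recovered. Alternatives were DESeq2 1.42.0, no filter on low counts, left-out libraries, depth, doublets, other numbers of selecting genes and the replicate or library block. Addition of all 8 other libraries was chosen after seeing the data. Promoters came from RefSeq, GRCm38.p6. The mutated gene of the mutant line is not reported here.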

Additional observations from a re-analysis of the deposited data

How the results depend on the processing

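The comparison of marker-high with low-marker cells gave 1359 to 2416 genes past edgeR's test when 1 library was left out, against 2534 with all 4. Of its 121 named genes 90 passed, 69 of them in every setting in which they could be tested, and none changed direction and passed. For marker-high cells of RFP+ 2 weeks against 4 days, where no gene passed, DESeq2 called 3 genes, no filter on low counts gave 73, the replicate block gave 2, and leaving out 1 library gave 0 to 1. For RFP+ against YFP+ at 2 weeks, DESeq2 called 1, no filter gave 22, the replicate block gave 0 and left-out libraries gave 0. The cause was not tested. Replicate numbers did not mark shared lungs in the labels. Same-numbered RFP+ and YFP+ libraries at 2 weeks deviated together with a correlation of 0.55 over genes. For RFP+ 4 days the correlation was 0.18 with RFP+ 2 weeks and 0.17 with YFP+ 2 weeks. The 2-week YFP+ libraries of the first comparison may share lungs with those that set the criteria, which was not tested. Without the library term (no replicate block) the first comparison gave 1889 genes. The 155 genes at least 4-fold apart in both 2-week RFP+ libraries were 124 higher and 31 lower. They became 301 with at least 5 of the 6 genes required, 182 higher and 119 lower. With a pseudocount of 10 CPM they became 64, 52 higher and 12 lower. The mean share of 26.65% became 17.6% at 2000 UMIs per cell (10.2% in replicate 1 and 25% in replicate 2), 23.1% at 5000, 17.45% with at least 5 genes and 41.35% with at least 3. The number of cells limits the YFP+ 2-week values, with 25 marker-high cells per library. The part of RFP+ cells among them was not tested.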
